A study of Homo sapiens with 18 samples.

Results

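Long intergenic noncoding RNAs (lincRNAs) that were expressed in EBC-1, PC-9 or HCC827 lung cancer cells were described here, at baseline and after stable knockdown of the tyrosine kinase SYK. The members were chosen by their measured level: a gene was taken when the deposited tables gave its biotype as lincRNA and its mean FPKM (fragments per kilobase of gene length, scaled to library size) over the 6 libraries of at least 1 cell line reached 2. This rule took 310 of the 7493 lincRNAs listed, or 4.14%, among 58302 genes of all kinds. The levels that chose the members are given as a description and were not tested.

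The series asked how the transcriptomes of different cancer cells change when SYK is depleted. RNA of 18 libraries was sequenced, 3 with a negative control shRNA (nc) and 3 with the shRNA against SYK (shSYK) in each cell line. EBC-1 carries MET amplification, and PC-9 and HCC827 carry EGFR exon 19 deletion, in the nc and shSYK libraries alike. Knockdown rested on a single shRNA clone delivered by lentivirus, so an effect of this clone on other targets cannot be told apart from loss of SYK, and nothing states whether the 3 libraries of a group came from separate cultures. The p-values therefore measure the spread between these libraries, which may be technical.

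LincRNAs are long transcripts that are read from stretches between protein-coding genes and are not translated into a known protein. Some act as scaffolds of nuclear bodies or sponges of RNA-binding proteins, some carry snoRNAs or miRNAs in their introns or exons, and others are read outward from the promoter of a neighbouring coding gene. Many are found in few cell types, at levels below those of mRNAs.

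Reads per gene were recovered from the FPKM values, and the libraries held 7920099 to 15729103 reads on genes, of which the members took 0.180% to 0.353%. SYK was left at 52.3% of nc (EBC-1), 32.1% (PC-9) and 32.9% (HCC827), with no overlap between nc and shSYK in any line (limma adjusted p = 0.000271, 0.00733 and 0.000197). EPCAM, CDH1, KRT8, KRT18 and KRT19 were high in nc cells of all 3 lines, MET was at 469 FPKM in EBC-1 and EGFR at 284 FPKM in HCC827. NKX2-1 and NAPSA, markers of lung adenocarcinoma, reached 54.1 and 87.1 FPKM in HCC827 and at most 2.09 FPKM elsewhere, and surfactant genes SFTPB and SFTPC were near 0 in all nc libraries. Of 5 squamous markers, KRT5 had a mean of 20.7 FPKM in nc and 138 in shSYK PC-9 cells, KRT6A 12.2 and 3.08 in HCC827, and SOX2 22.3 and 8.63 in HCC827 and 9.85 and 6.96 in EBC-1, while TP63 and DSG3 were near 0 everywhere. The part of these shifts in the results was not tested. Of the markers of other cells, PTPRC, CD3E and HBB gave at most 0.144 FPKM, COL1A1 at most 8.29 and the endothelial marker PECAM1 13.4 FPKM in PC-9. PC-9 nc replicate 1 stood apart from the other PC-9 libraries. The counts of changed and of non-overlapping members in PC-9 are given with and without it. Tests of differences between lines that involve PC-9 were run only with it.

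In EBC-1 173 of the 310 members passed 2 FPKM, while 179 did so in PC-9 and 161 in HCC827. Only 63 passed it in all 3 lines, 77 passed it in 2 lines and 170 in 1 line, of which EBC-1 and PC-9 each held 63 and HCC827 held 44. The best mean of a member had a median of 4.21 FPKM, with 180 members between 2 and 5, 83 between 5 and 10 and 47 at 10 or more. By the same rule, 10424 protein-coding genes were taken, with a median best mean of 11.2 FPKM. Just inside the threshold lay AC006058.1 at 2.001 FPKM, LINC01285 at 2.002 and AL109615.2 at 2.005. Just outside it lay AC244197.2 at 1.999, AP001628.1 at 1.999 and LINC01269 at 1.996. The median gene length of the members was 1148 bases, and in the best line of a member the median was 62.75 reads per library, with 37 members under 20 reads, so counting error is large for many of them.

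The members lay close to coding genes. The median gap to the nearest protein-coding gene was 4487 bases, 38 members were more than 100000 bases away, and 79 members (25.5%) started within 1000 bases of a coding gene on the opposite strand and were read away from it. A further limit concerns strand: 44 members overlapped a coding gene on the opposite strand and 9 on the same strand, and since nothing states that reads were counted by strand, reads of such pairs cannot be told apart. All 310 members were counted, and 2 of them are not described by their values. Of 297 members found by identifier in GENCODE v44, 293 were still noncoding RNAs there, and 2 (AC093323.1 and BLACAT1) had become protein-coding.

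The promoters below are shown because they belong to 2 of the 6 members whose nc and shSYK values separated in the same direction in every line, AC254633.1 and BAIAP2-AS1, both downward. Each runs from 250 bases before the annotated start to 50 bases after it, on the transcribed strand, 5′ to 3′, in hg38. The windows are chr1:12619195-12619494 and chr17:81034832-81035131, both on the minus strand. Capitals mark the letters TGANTCA and GGGCGG, found on either strand. TGANTCA, where N is any base, is a loose form of the site of AP-1 factors such as FRA1. A match, called AP-1 letters below, need not be a full AP-1 site. GGGCGG is the GC box read by Sp1. The study examined FRA1 and Sp1 together with SYK.
AC254633.1: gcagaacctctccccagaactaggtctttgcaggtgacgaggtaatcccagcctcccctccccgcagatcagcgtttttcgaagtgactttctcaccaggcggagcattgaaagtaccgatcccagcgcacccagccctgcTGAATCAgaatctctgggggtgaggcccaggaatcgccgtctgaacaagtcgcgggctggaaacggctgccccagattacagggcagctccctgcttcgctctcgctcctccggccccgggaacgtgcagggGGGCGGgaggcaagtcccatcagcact
BAIAP2-AS1: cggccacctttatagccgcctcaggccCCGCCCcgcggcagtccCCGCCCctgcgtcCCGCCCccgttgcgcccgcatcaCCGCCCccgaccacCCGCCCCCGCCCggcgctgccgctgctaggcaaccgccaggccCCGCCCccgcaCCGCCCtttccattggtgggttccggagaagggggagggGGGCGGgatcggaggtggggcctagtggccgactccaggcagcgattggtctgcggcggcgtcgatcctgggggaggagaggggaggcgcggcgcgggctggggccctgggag
The AC254633.1 window held 1 stretch of AP-1 letters, TGAATCA, and 1 GC box. The BAIAP2-AS1 window, with 77.3% G and C, held 9 GC boxes and no AP-1 letters. Across all members, 149 of 310 windows (48.1%) held a GC box, against 50.9% of 19805 protein-coding promoters and 15.5% of 7183 other lincRNA promoters. The median content of G and C in these windows was 59.3%, 59.7% and 46.7% in the same order. Its part in the GC box shares was not tested. AP-1 letters were found in 29 members (9.36%), in 6.44% of protein-coding promoters and in 11.0% of other lincRNAs. Such matches describe letters only and do not show binding.

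The miRNAs below are shown because their host genes changed after SYK knockdown, as given further on. The mature sequences are those of RefSeq on GRCh38.p14, 5′ to 3′, and capitals mark the seed, bases 2 to 8, which pairs with targets. The libraries measured the host RNA and not the mature miRNAs.
hsa-let-7a-5p (MIRLET7BHG): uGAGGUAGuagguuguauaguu
hsa-let-7b-5p (MIRLET7BHG): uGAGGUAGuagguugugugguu
hsa-miR-200c-3p (MIR200CHG): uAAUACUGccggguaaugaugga
hsa-miR-141-3p (MIR200CHG): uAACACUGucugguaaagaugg
hsa-miR-503-5p (MIR503HG): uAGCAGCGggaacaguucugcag
hsa-miR-22-3p (MIR22HG): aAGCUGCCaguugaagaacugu
hsa-miR-4435 (MIR4435-2HG): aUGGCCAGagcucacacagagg
The let-7 pair shares the seed GAGGUAG. By position, 9 members were found to contain at least 1 of 15 RefSeq miRNA genes. The other hosts found were MIR193BHG, MIR210HG, MIR3142HG and AC005699.1. PVT1 and AC020916.1, named MIR23AHG in GENCODE v44, gave none in this search, so the list may be incomplete.

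A few members made up much of the lincRNA signal. NORAD, a sponge of PUMILIO proteins that lies on chr20:36045622-36050960, was the highest, with nc values of 53.3, 60.8 and 54.6 FPKM in EBC-1, 34.9, 61.1 and 48.2 in PC-9 and 45.2, 49.2 and 44.9 in HCC827. The PC-9 values spanned those of HCC827, and every EBC-1 value was above every HCC827 value. NEAT1, the scaffold of paraspeckles (chr11:65422774-65445540), stood at 38.0, 53.3 and 31.0 FPKM in nc EBC-1, at 2.87, 10.4 and 5.65 in PC-9 and at 3.26, 3.26 and 1.78 in HCC827. MALAT1, an RNA of nuclear speckles, was likewise higher in EBC-1 (13.7 to 24.3 FPKM in nc) than in PC-9 (1.59 to 7.44) or HCC827 (6.07 to 9.88). Both varied more between libraries of 1 group than NORAD did: in PC-9 nc, NEAT1 ranged from 540 to 2762 reads. Other members among the 10 highest by mean over all 18 libraries were AL391121.1 beside TRIM8, AC254633.1, the snoRNA hosts SNHG8 and SNHG19, AC005392.2, AC004816.1 and MIR200CHG.

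Line-specific lincRNAs at baseline were sought in the nc libraries. A member was counted as highest in a line when its mean nc level was at least 2 FPKM and at least 10 times that of both other lines, with a level below 3 reads per library raised to that of 3 reads. By this rule 41 of 310 members (13.2%) were specific: PC-9 held 18, HCC827 16 and EBC-1 7. Of the protein-coding genes taken by the same level rule 3.99% were specific, and of 356 antisense RNAs 4.21%. At the other end, 62 members (20%) reached 2 FPKM in nc of all 3 lines. Of the antisense RNAs 20.2% did, and of the coding genes 72.2%. Of the 62 members, 30 (48.4%) stayed within 2-fold between lines. For antisense RNAs and coding genes that reached 2 FPKM in all lines, this share was 47.2% and 50.7%. These shares are descriptions across separately made tables and carry no test, and the lower reads of lincRNAs moved with them.

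In EBC-1 the highest specific member was AC120498.4 (chr16:1294551-1299166), with 16.1, 17.1 and 14.6 FPKM in nc, that is 71, 69 and 55 reads, against at most 2 reads in any nc library of the other lines. LINC01468 (chr10:52450874-52470533) stood at 13.0, 12 and 9.0 FPKM and was at least 42.2-fold higher than in HCC827. FLJ22447 (chr14:61570540-61658696) stood at 10.5, 12.5 and 9.40 FPKM, 49.2-fold above PC-9, and it overlaps a coding gene model on the same strand. The EBC-1 set was completed by AL645608.9, AC084346.1, ATP2B1-AS1 and AC005699.1, with nc means from 2.44 to 8.49 FPKM. Of the 7, 3 had both other lines under the level of 3 reads.

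The highest line-specific level was found in PC-9. AC005392.2 (chr19:43329295-43331430) reached 60.6, 43.7 and 59.0 FPKM in nc PC-9 cells with 151, 153 and 185 reads, was without a read in EBC-1 and had 1, 3 and 6 reads in HCC827. It stood 51.7-fold above HCC827. AL365356.5 (31.9, 32.6 and 30.4 FPKM), named LASTR in GENCODE v44, was 20.2-fold above HCC827. AL035446.1 was at 24.0, 17.7 and 17.8 FPKM. The snoRNA host SNHG18, read outward from the SEMA5A promoter, was at 7.99, 8.55 and 8.70 FPKM in PC-9 with no read in HCC827. AL033504.1 (6.59 to 10.3 FPKM), IGFL2-AS1 (6.77 to 7.42), AC068134.2 (6.16 to 8.06) and AL049836.1 (5.69 to 6.73) followed, and AL033504.1 had no read in either other line and overlaps the coding gene SAMD5 on the same strand.

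HCC827 was led by AC084116.1 (chr8:126498149-126500303), at 27.7, 29.4 and 26.2 FPKM and at least 44.9-fold above both other lines. LINC00973 (chr3:98981058-98983096) was at 23.2, 21.9 and 18.6 FPKM, 10.8-fold above EBC-1, where it still had 21 to 27 reads. CASC9 (chr8:75223404-75324741), a cancer-associated lincRNA, stood at 18.3, 17.5 and 20.7 FPKM with no read in nc EBC-1 cells and 5 to 16 reads in nc PC-9 cells. AC025575.2, AL365226.2, ELFN1-AS1, LINC00501 and AC091173.1 came next, with nc means from 6.52 to 17.3 FPKM. ELFN1-AS1 and LINC00501 had no read in the nc libraries of the other lines. ELFN1-AS1 lies within ELFN1 on the other strand.

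**Figure D1:**
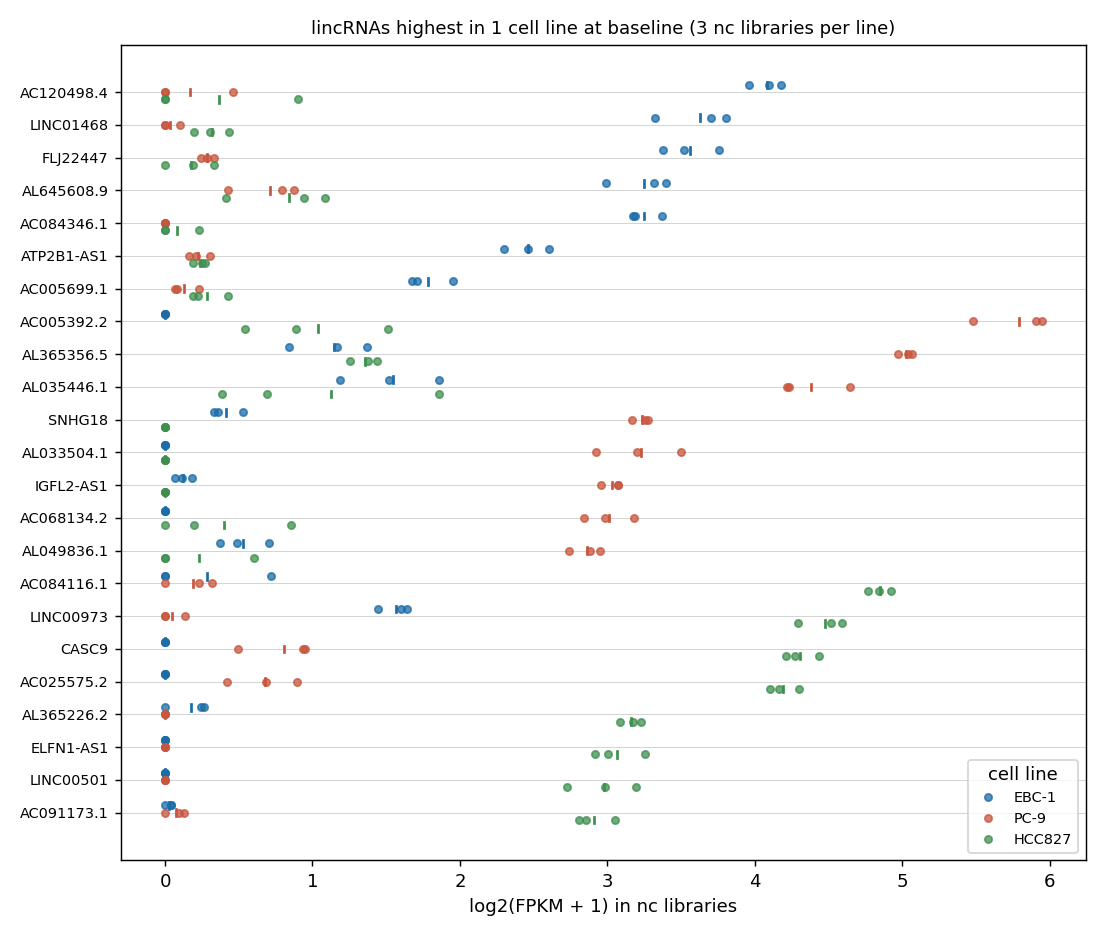
Levels of line-specific lincRNAs in nc cells. Each point is 1 nc library (3 per cell line, coloured by line), the horizontal axis is log2(FPKM + 1), and short bars mark the level of the mean. All 7 members of EBC-1 and the 8 highest of PC-9 and of HCC827 are shown from top to bottom, and in each line of the plot the points of 1 cell line lie far to the right of the others, with AC005392.2 in PC-9 the highest at 43.7 to 60.6 FPKM.

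In their own line, 3 of the 7 EBC-1-specific members fell after knockdown by the limma test explained further on, 1 of the 18 of PC-9 fell, and of the 15 of HCC827 that were tested 4 rose and 4 fell. The share of all genes tested that changed was 44.7% for EBC-1 cells, 38.0% for HCC827 and 2.09% for PC-9. These members had been picked for high nc levels, which the same comparison uses, so the counts are a description. In EBC-1, AC120498.4 fell from 16.1, 17.1 and 14.6 FPKM to 6.70, 7.75 and 7.58 (46.1% of nc), AC084346.1 fell from 9.34, 8.10 and 8.03 to 3.94, 4.05 and 4.18 (47.8%), and AL645608.9 fell to 67.7% of nc (limma adjusted p = 0.000234, 0.000264 and 0.0119). In HCC827, AC025575.2 fell from 16.2, 18.7 and 16.9 FPKM to 12.4, 10.5 and 10.4 (adjusted p = 0.00199) and AC091173.1 fell to 71.6% of nc (adjusted p = 0.00631), while LINC00973 rose to 30.5, 36.3 and 31.6 FPKM (adjusted p = 0.00318). In PC-9, IGFL2-AS1 fell from 6.77, 7.42 and 7.40 FPKM to 3.78, 2.49 and 3.43 (adjusted p = 0.0180). AC005392.2 gave 32.6, 28.7 and 33.1 FPKM in shSYK, 57.7% of nc and without overlap, and its adjusted p of 0.0519 missed the threshold. CASC9, AC084116.1, LINC00501 and ELFN1-AS1 did not pass it either, with adjusted p from 0.201 to 0.711.

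For the effect of SYK knockdown on all members, log2(FPKM + 1) was compared between shSYK and nc within each line with limma, on genes with a mean of at least 1 FPKM over the 6 libraries. A gene with a Benjamini-Hochberg adjusted p under 0.05 over all genes tested was counted as changed. In bulk RNA, fewer cells of a kind and less RNA per cell cannot be told apart.

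In EBC-1, 72 of 214 members tested (33.6%) changed, 24 upward and 48 downward, where 44.7% of all genes tested did, 23.1% higher and 21.6% lower in shSYK. The members' median log2 change was -0.12 beside 0.01 over all genes. Rescaling each library to the same FPKM sum moved the median of all genes by 0.13 and gave 38 members higher and 38 lower, with 32.2% of all genes higher and 15.2% lower. With limma-voom on the recovered reads, 17 members were higher and 42 lower. The members' median was -0.03 beside 0.13 over all genes with equal sums, and -0.16 beside 0.003 with voom. The counts per direction in EBC-1 thus depend on the scaling, while the members' median lay below that of all genes under each.

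In HCC827, 67 of 208 members (32.2%) changed, 48 of them rising and 19 falling, where 38.0% of all genes did, 17.2% rising and 20.7% falling. The median log2 change was 0.13 in members and -0.01 over all genes. With equal library sums 50 members rose and 17 fell, where 20.6% of all genes rose and 15.8% fell. The summed level of the members was 1045 to 1090 FPKM in nc and 1229 to 1232 in shSYK.

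In PC-9, 6 of 230 members (2.61%) changed, 2 of them rising and 4 falling, beside 2.09% of all genes, 0.678% rising and 1.41% falling. The unadjusted p was under 0.05 in 57 members (24.8%) and in 15.6% of all genes. None of the 6 calls held in every leave-one-out fit: with limma 0 members passed without nc replicate 3 or without any 1 of the shSYK libraries, where 40 to 48 had an unadjusted p under 0.05, while 8 passed without nc replicate 2 and 14 without nc replicate 1. A fit over all 18 libraries together called 31 members in PC-9. The shares of all genes called in these other fits are not given here, so their counts are no result about the members.

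**Figure D2:**
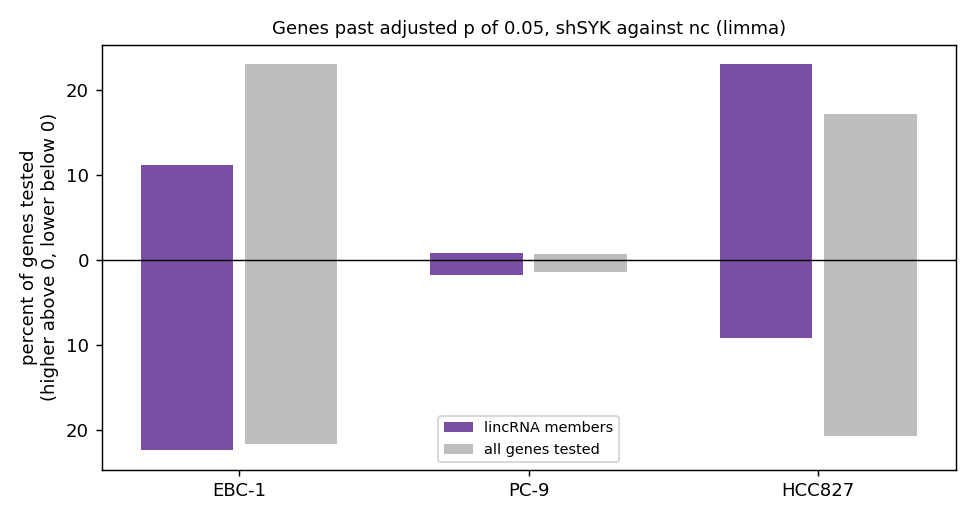
Share of genes that passed limma's adjusted p of 0.05 in each cell line, in percent of those tested, with genes higher in shSYK above 0 and lower below. Purple bars are the lincRNA members and grey bars all genes tested. In EBC-1 the purple bar is shorter upward (11.2% against 23.1%), and in HCC827 it is taller upward (23.1% against 17.2%) and shorter downward (9.13% against 20.7%).

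The number of reads behind a gene moved with the share called in EBC-1 and, for the members, in HCC827. In EBC-1, 23.7% of the members with under 20 reads per library changed, 34.8% of those with 20 to 100, 37.0% with 100 to 500 and 40.0% with 500 or more. Protein-coding genes gave 25.7%, 36.9%, 48.0% and 50.8% in the same classes. In HCC827 the members gave 18.4%, 30.5%, 47.7% and 50%, and coding genes 35.8%, 28.7%, 37.8% and 46.7%. PC-9 ran the other way in coding genes, with 8.7%, 3.14%, 2.16% and 1.73%, and its members gave 3.7%, 1.65%, 4% and 0%. Some classes were small. In the order EBC-1, PC-9, HCC827, the lowest held 35, 46 and 53 coding genes, and the highest held 10, 5 and 10 members. The part of depth in these shares was not tested.

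Members whose nc and shSYK values did not overlap were counted among those with a mean of at least 2 FPKM in the line. There were 73 of 173 in EBC-1 (42.2%, 27 higher and 46 lower in shSYK), where 60.0% of all genes at that level did not overlap. In PC-9 there were 62 of 179 (34.6%, 34 higher and 28 lower) beside 24.4% of all genes. In HCC827 there were 68 of 161 (42.2%, 47 higher and 21 lower) beside 55.3% of all genes. Without PC-9 nc replicate 1, where a count can only rise or stay, 79 of 179 members (44.1%) and 42.9% of all genes did not overlap in PC-9.

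In all, 6 members did not overlap in the same direction in all 3 lines, AC254633.1, BAIAP2-AS1, LINC01547 and LINC01770 lower and AL161431.1 and AP002360.2 higher in shSYK. Among the 126 members at 1 FPKM or more in every line the share was 3.17%, and among all 10030 such genes it was 7.05%. With libraries rescaled to an equal sum, AC254633.1, BAIAP2-AS1 and LINC01770 still separated downward in all lines and neither of the 2 upward members did. With recovered reads scaled by library size and the trimmed mean of M values, all 6 still separated.

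AC254633.1 (chr1:12618900-12619244, a single short gene model of 345 bases) showed the largest fall among the members tested. In EBC-1 it dropped from 70.6, 74.8 and 75 FPKM (336, 326 and 305 reads) to 5.68, 3.96 and 4.90 (32, 16 and 23 reads), 6.60% of nc, with a log2 change of -3.68 ± 0.11 (SE, n = 3 per group) and a limma adjusted p of 6.39e-06. The 2 groups are far apart. In HCC827 it was at 4.81, 3.70 and 2.15 FPKM (12, 15 and 8 reads) in nc and at 0, 1.36 and 0.531 (0, 5 and 2 reads) in shSYK (adjusted p = 0.0102). PC-9 gave 8.41, 7.73 and 10.6 FPKM in nc and 3.23, 5.05 and 5.43 in shSYK, 51.3% of nc, with an adjusted p of 0.0694 that missed the threshold. The effect differed between EBC-1 and PC-9 by -2.84 ± 0.38 on the log2 scale (adjusted p = 0.000115) and between EBC-1 and HCC827 by -2.16 ± 0.38 (adjusted p = 0.000782).

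AC254633.1 lies 1169 bases upstream of DHRS3, on the same strand. DHRS3 encodes an enzyme that reduces retinal to retinol. In EBC-1 DHRS3 fell from 138, 123 and 137 FPKM to 51.5, 55.8 and 39.3 (log2 change -1.44 ± 0.13, adjusted p = 0.000291). It also fell in HCC827, from 24.3, 25.4 and 30.4 to 11.0, 12.8 and 13.2 (adjusted p = 0.000444). In PC-9 it was at 47.9 to 76.3 in nc and 47.3 to 53.8 in shSYK (adjusted p = 0.595). The lincRNA and its neighbour thus passed or missed the threshold in the same lines.

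BAIAP2-AS1 (chr17:81029130-81034881), read outward from the promoter of BAIAP2, the gene of a membrane-bending adaptor protein, was the only member that passed the test in all 3 lines. In EBC-1 it fell from 6.60, 6.22 and 6.80 FPKM (434, 375 and 383 reads) to 3.14, 3.08 and 3.64, and in HCC827 from 8.41, 8.72 and 9.08 to 5.54, 4.51 and 4.74. In PC-9 it fell from 7.24, 6.33 and 6.77 (286, 351 and 337 reads) to 3.31, 3.75 and 3.67 (198, 226 and 178 reads). The remaining level was thus close in the lines, at 50.3%, 52.7% and 56.4% of nc in the order EBC-1, PC-9, HCC827, with log2 changes of -0.82 ± 0.08, -0.77 ± 0.09 and -0.72 ± 0.08 and adjusted p of 0.000404, 0.0132 and 0.000692. BAIAP2 itself fell in EBC-1 (log2 change -0.33 ± 0.08, adjusted p = 0.0131). In PC-9 it gave 0.03 ± 0.12 and in HCC827 0.07 ± 0.07, with adjusted p of 0.956 and 0.476.

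LINC01547 and LINC01770 separated downward at low levels. LINC01547, which starts 97 bases from FAM207A on the other strand, was at 2.38, 1.43 and 1.82 FPKM in nc EBC-1 and 1.06, 0.998 and 0.498 in shSYK (adjusted p = 0.0212, a call lost in 3 of 6 leave-one-out fits). PC-9 gave 1.64, 1.13 and 0.903 and then 0.810, 0.566 and 0.519, below the level tested. In HCC827 it was at 3.80, 4.46 and 3.88 and then 3.09, 3.33 and 3.69, which missed the threshold (adjusted p = 0.0880). LINC01770, beside VWA1, was called in HCC827 (1.46, 2.40 and 2.29 to 1.29, 1.22 and 1.18 FPKM, adjusted p = 0.0378) on 9 to 24 reads a library, and in EBC-1 it had 5, 2 and 6 reads in nc and 2, 1 and 0 in shSYK. The lowest nc and the highest shSYK library of EBC-1 thus had 2 reads each, and their values separated only through the scaling to library size. The HCC827 call was lost with equal library sums and with voom on the recovered reads, among other alternatives.

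On the upward side, AL161431.1 (chr13:109269634-109273838) rested on the most reads. It rose in HCC827 from 15.4, 15.4 and 12.1 FPKM (468, 763 and 546 reads) to 23.0, 24.8 and 22.1 (965, 1109 and 1014 reads), 163% of nc (adjusted p = 0.00230), and in EBC-1 from 10.2, 10.2 and 9.38 to 12.1, 11.6 and 14.4 (128%, adjusted p = 0.0241, a call lost in 2 of 6 leave-one-out fits). PC-9 gave 5.46, 8.88 and 7.60 and then 9.27, 11.3 and 10.5, with an adjusted p of 0.230. AP002360.2, which starts 267 bases from EMSY and is read away from it, rose in HCC827 from 7.34, 8.02 and 5.05 FPKM to 13.1, 11.8 and 13.5 (189% of nc, adjusted p = 0.00404). Its change was smaller in EBC-1 (119% of nc) and PC-9 (115%), and the effect differed from HCC827 with adjusted p of 0.0154 and 0.0215. EMSY, whose protein binds BRCA2, rose in EBC-1 (adjusted p = 0.00257) and not in HCC827, where it gave 1.47 to 1.82 FPKM in nc and 1.48 to 1.82 in shSYK.

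**Figure D3:**
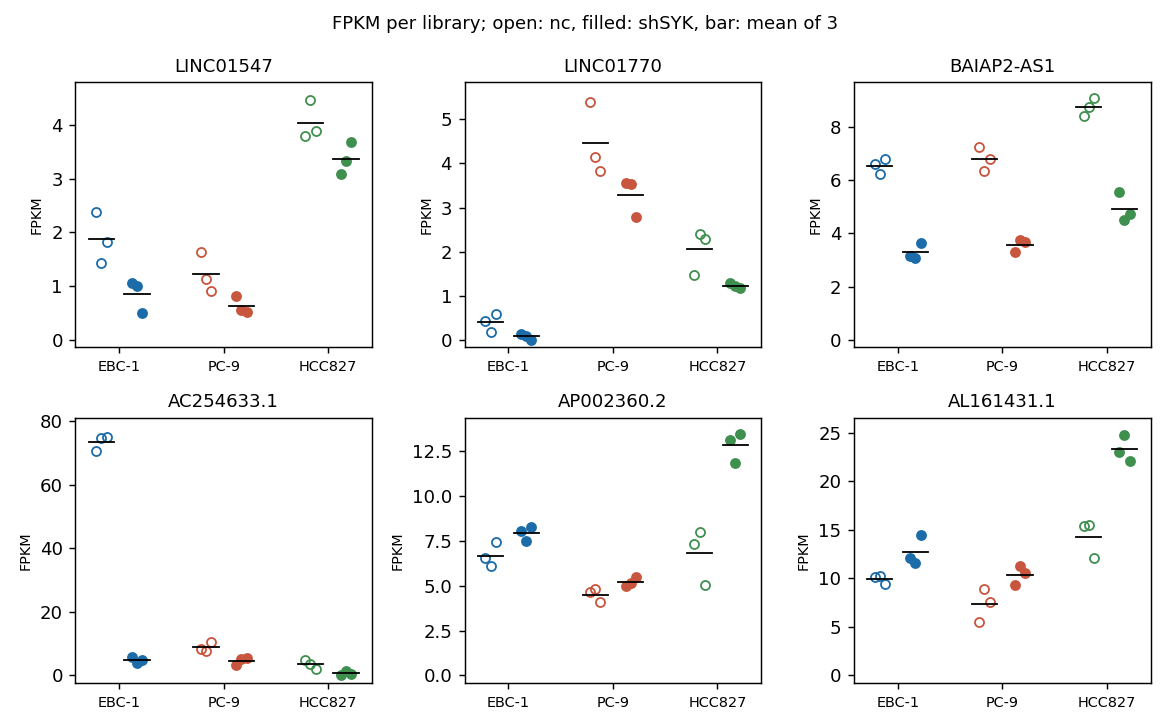
FPKM of the 6 lincRNAs whose nc and shSYK values did not overlap in the same direction in all 3 lines. Each point is 1 library, open for nc and filled for shSYK, bars are means of 3, and each panel has its own vertical axis from 0. The fall of AC254633.1 in EBC-1 (70.6 to 75 against 3.96 to 5.68 FPKM) is the largest, and the falls of BAIAP2-AS1 to 50.3%, 52.7% and 56.4% of nc are alike in the 3 lines.

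The other large falls were mostly seen in EBC-1. APTR (chr7:77657660-77696265), an RNA known for repressing the cell cycle inhibitor gene CDKN1A, fell from 8.42, 10.2 and 9.08 FPKM (360, 399 and 332 reads) to 2.43, 3.01 and 3.53 (123, 109 and 149 reads), 32.4% of nc (log2 change -1.36 ± 0.12, adjusted p = 0.000264). It gave 107% of nc in PC-9 and 109% in HCC827, and the effect in EBC-1 differed from both (adjusted p = 0.000305 and 0.000163). RSBN1L, across the shared promoter, was level at 5.12 to 6.29 FPKM in nc and 5.10 to 5.65 in shSYK EBC-1 cells (adjusted p = 0.823).

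AC015712.1 (chr15:100849561-100861756) fell in EBC-1 from 6.08, 6.10 and 4.70 FPKM to 1.49, 1.56 and 2.49 (32.8% of nc, adjusted p = 0.000968). The nearest coding gene, ALDH1A3, makes retinoic acid from retinal and lies 15958 bases away on the same strand. It fell in the same cells from 84.9, 94.4 and 74.8 FPKM to 14.8, 13.1 and 16.1 (adjusted p = 2.43e-05). In PC-9 neither passed the threshold, with adjusted p of 0.538 for AC015712.1 and 0.502 for ALDH1A3. AC009093.4, AC068580.2 and AP006621.2 also fell in EBC-1, to 35.5%, 43.2% and 34.1% of nc, on 5 to 56 reads a library.

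LINC00511 (chr17:72323123-72640472), a lincRNA often raised in lung tumours, fell by nearly the same share in 2 lines. It went from 7.21, 6.51 and 6.35 FPKM (856, 709 and 645 reads) to 3.13, 3.65 and 3.29 in EBC-1 and from 6.89, 7.97 and 8.80 to 4.65, 3.81 and 3.42 in HCC827, 50.2% of nc in each (adjusted p = 0.000427 and 0.00161). In PC-9 it was at 5.08, 4.08 and 4.56 in nc and 4.17, 4.60 and 4.06 in shSYK, with overlapping groups. The PC-9 effect differed from that in EBC-1 (adjusted p = 0.00231) and from that in HCC827 (adjusted p = 0.00332).

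The largest rises of EBC-1 were LINC02454, MALAT1, AC002384.1, AC093484.5, LINC00973 and LINP1. LINP1, which takes part in the joining of DNA ends, rose from 9.81, 9.93 and 9.62 FPKM to 17.3, 14.7 and 18.9 (174% of nc, adjusted p = 0.00106) and differed from its effect in PC-9 (102% of nc) and HCC827 (109%) with adjusted p of 0.00785 and 0.0167. LINC02454 rose in EBC-1 from 2.35, 1.5 and 2.56 FPKM to 4.72, 5.06 and 4.68, while HCC827 went from 1.39, 0.666 and 0.830 to 2.24, 2.42 and 3.07 (adjusted p = 0.00192 and 0.00493). LINC00973 rose in EBC-1 to 203% of nc (adjusted p = 0.000785) and reached 154% in HCC827. MALAT1 went from 14.7, 24.3 and 13.7 FPKM to 28.4, 25.4 and 37.3 (adjusted p = 0.0240), with nc replicate 2 close to the shSYK libraries, and this call was lost in 3 of the 6 leave-one-out fits. AC093484.5 rested on 7 to 30 reads and was lost in 4 of those fits, while AC002384.1 rose from 2.58, 3.15 and 2.59 to 5.81, 5.43 and 5.11 FPKM on 108 to 336 reads (adjusted p = 0.000761).

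In HCC827 the largest rise was that of AC026785.3, from 2.43, 2.39 and 1.63 FPKM to 8.08, 7.26 and 9.96, on 5 to 31 reads (adjusted p = 0.000334). It gave 4.24, 6.34 and 8.08 and then 8.11, 11.7 and 12.8 FPKM in PC-9, where its adjusted p was 0.182. BX255923.1 (276% of nc), AC245041.2 (241%) and LINC00239 (321%, on 1 to 18 reads and lost in 4 of 6 leave-one-out fits) rose as well. BX255923.1 and AC245041.2 lie in regions with near-identical copies, beside FOXD4L6 and over NPY4R2, so their reads may be split between copies. SFTA1P (chr10:10784437-10794980), a surfactant-associated pseudogene transcript of lung cells, rose from 6.04, 5.06 and 3.83 FPKM to 9.60, 12.4 and 9.89 (214% of nc, adjusted p = 0.00274). In PC-9 it gave 116% of nc.

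LUCAT1 (chr5:91303029-91314402), a lung cancer lincRNA linked to the response to smoke and oxidative stress, fell in HCC827 from 6.19, 5.86 and 6.36 FPKM (130, 200 and 199 reads) to 2.90, 3.08 and 3.41 (84, 95 and 108 reads), 50.9% of nc (adjusted p = 0.000367). In PC-9 it was at 3.00, 8.29 and 4.62 in nc and 7.24, 7.77 and 5.50 in shSYK, and the effects in the 2 lines differed (adjusted p = 0.0252). AC245595.1 and LINC00342 fell in HCC827 to 41.5% and 48.2% of nc (adjusted p = 0.00879 and 0.0149).

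The 6 members called in PC-9 were BAIAP2-AS1, IGFL2-AS1, LINC01983, C5orf66-AS1, SNHG8 and LINC01895. LINC01983 (chr3:195836193-195860404) fell from 2.95, 4.38 and 3.15 FPKM to 0.929, 0.504 and 0.731, on 23 to 48 reads in nc and 6 to 11 in shSYK (adjusted p = 0.0130). In EBC-1, where it was too low to be tested, it gave 2.08, 1.26 and 1.35 in nc and 0.195, 0.363 and 0.546 in shSYK. C5orf66-AS1, near PITX1, fell to 34.4% of nc and LINC01895 rose to 231% (adjusted p = 0.0438 and 0.0415), each on at most 31 reads. The calls of all 6 were lost in 4 of the 6 leave-one-out fits, as given above.

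Between lines, 155 members were tested in both EBC-1 and HCC827 and 18 changed in both. Of these 13 moved the same way, 8 up (AC006058.1, AL121658.1, AL161431.1, LINC00973, LINC01023, LINC01806, LINC02454 and NORAD) and 5 down (AC106782.2, AC254633.1, BAIAP2-AS1, LINC00511 and SNHG15). The other 5 (AC006058.3, AC078820.1, AC084033.3, AC148477.4 and FLJ20021) fell in EBC-1 and rose in HCC827. These names were listed after their values were seen. Over all genes 2184 changed in both lines, and 84.0% of them moved the same way, beside 72.2% of the members. A direct test of the difference called 65 of 310 members (21.0%) between EBC-1 and HCC827, where 20.6% of all genes were called, 42 (13.5%) between EBC-1 and PC-9 beside 18.3%, and 26 (8.39%) between PC-9 and HCC827 beside 7.63%.

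**Figure D4:**
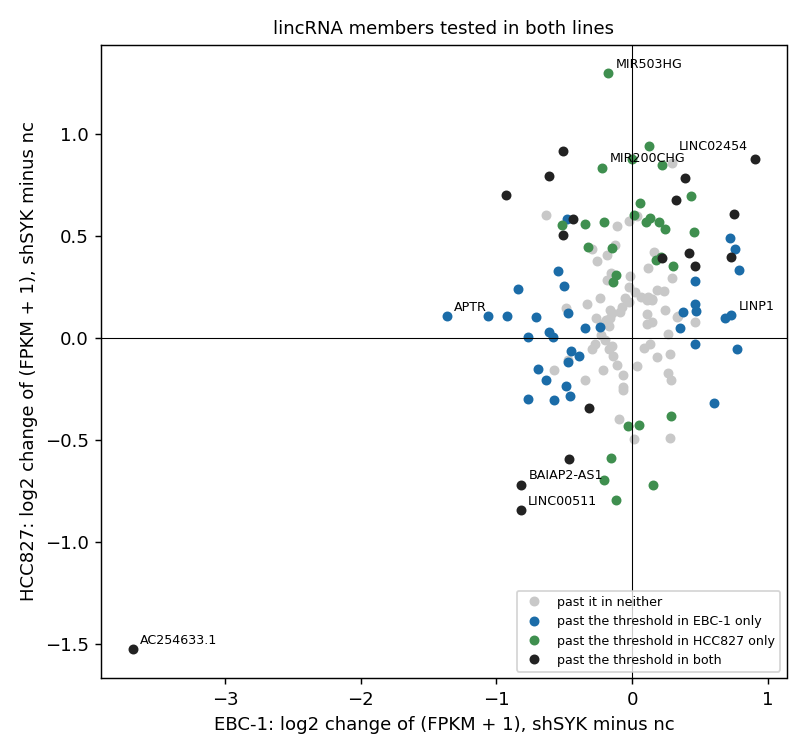
Change of each lincRNA tested in both EBC-1 (horizontal axis) and HCC827 (vertical axis), as the log2 change of FPKM + 1, shSYK minus nc. Points are genes, coloured by the lines in which they passed an adjusted p of 0.05. AC254633.1 lies apart at -3.68 and -1.52, LINC00511 and BAIAP2-AS1 are low on both axes, and APTR and MIR503HG moved along 1 axis.

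Of 9 host genes of miRNAs by name (this count takes PVT1 with MIR symbols), 6 were tested in HCC827 and 4 rose, where 17.2% of all genes rose. In EBC-1 1 of 8 fell, where 21.6% of all genes fell, and in PC-9 none of 7 passed, where 2.09% of all genes did. Over the hosts tested, which leave out MIR3142HG in HCC827, the median log2 change was 0.50 in HCC827, -0.08 in EBC-1 and 0.14 in PC-9. Over all genes it was -0.01, 0.01 and 0.01. MIR503HG (chrX:134543337-134546632), which carries miR-503, rose in HCC827 from 2.97, 3.81 and 1.71 FPKM (36, 75 and 31 reads) to 10.1, 7.34 and 7.26 (169, 131 and 133 reads), 291% of nc (log2 change 1.29 ± 0.21, adjusted p = 0.00346). It gave 83.5% of nc in EBC-1 and 124% in PC-9, and both effects differed from that in HCC827 (adjusted p = 0.00117 and 0.0194).

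MIR200CHG (chr12:6963246-6964447) holds miR-200c and miR-141, which restrain the ZEB factors of epithelial to mesenchymal transition. It rose in HCC827 from 11.1, 7.78 and 11.1 FPKM (28, 32 and 42 reads) to 14.9, 20.7 and 20.1 (52, 77 and 77 reads), 186% of nc (adjusted p = 0.00652). In EBC-1 it was at 10.2, 15.8 and 12.4 in nc and 11.9, 8.30 and 12.2 in shSYK, with overlap, and the 2 effects differed (adjusted p = 0.0175). MIR4435-2HG rose in HCC827 to 161% of nc and MIR22HG to 139% (adjusted p = 0.00136 and 0.00648), and MIR22HG overlaps WDR81 on the other strand. MIRLET7BHG (chr22:46053869-46113928), host of let-7a and let-7b, was above 1 FPKM in EBC-1 only and fell there from 3.48, 3.86 and 3.85 FPKM to 1.66, 1.66 and 1.68 (44.7% of nc, adjusted p = 0.000376). MIR3142HG, host of miR-146a, lay below the tested level in HCC827, with 20, 34 and 26 reads in nc and 0, 3 and 3 in shSYK. In the limma fit of all 18 libraries its log2 change in HCC827 was -1.01. That effect differed from the one in EBC-1 (adjusted p = 4.5e-06) and in PC-9 (adjusted p = 6.79e-05).

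Of 6 snoRNA host genes by name, 5 were tested in HCC827, where SNHG8 and SNHG19 rose and SNHG15 fell, while 38.0% of all genes changed. LINC02001, named SNHG30 in GENCODE v44, was not on this list. SNHG8 went from 52.3, 49.9 and 51.0 FPKM to 59.4, 69.4 and 68.0 (adjusted p = 0.00675). It also rose in PC-9, from 30.5, 35.9 and 30.1 to 53, 49.1 and 49.9 (adjusted p = 0.0373), a call lost with equal library sums. SNHG19 rose in HCC827 from 28.3, 22.4 and 26.3 to 41.6, 45.1 and 36.7 (adjusted p = 0.00300). SNHG15 fell to 78.3% of nc in EBC-1 and 77.3% in HCC827 (adjusted p = 0.0288 and 0.00510) and stayed at 99.6% in PC-9. In EBC-1 SNHG25 rose on 8 to 19 reads. The EBC-1 call of SNHG15 was lost with equal library sums and that of SNHG25 with voom on the recovered reads.

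**Figure D5:**
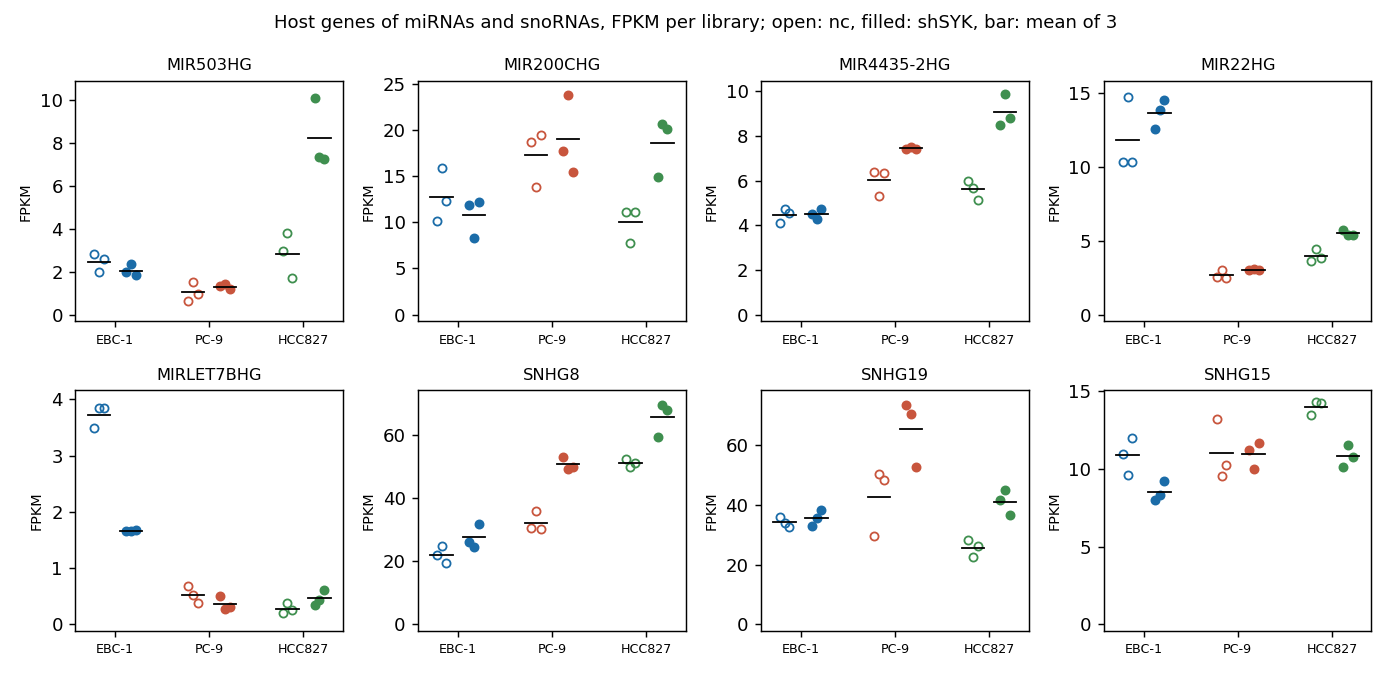
FPKM of 5 miRNA host genes and 3 snoRNA host genes in every library, open for nc and filled for shSYK, with bars at the mean of 3 and a vertical axis from 0 in each panel. In HCC827 the filled points of MIR503HG (7.26 to 10.1) and MIR200CHG (14.9 to 20.7) lie above the open ones, MIRLET7BHG falls in EBC-1 to 1.66 to 1.68, and SNHG15 is lower in EBC-1 and HCC827.

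Of 12 lincRNAs on a list drawn up for lung cancer, epithelial to mesenchymal transition or TGF-beta, all 12 were tested in HCC827, where 6 rose and 2 fell, beside 17.2% and 20.7% of all genes. The 6 were CYTOR, LINC00460, LINC00973, MIR4435-2HG, NORAD and SFTA1P, and the 2 were LINC00511 and LUCAT1. In EBC-1 2 of 10 rose (LINC00973 and NORAD) and LINC00511 fell, beside 23.1% and 21.6% of all genes, and in PC-9 none of 8 passed, beside 2.09%. The median log2 change of the list was 0.29 in HCC827, 0.06 in EBC-1 and 0.21 in PC-9. CYTOR rose in HCC827 from 8.57, 9.36 and 8.16 FPKM to 12.4, 14.3 and 14.0 (adjusted p = 0.00132), and PC-9 gave 5.98, 5.35 and 6.55 and then 8.28, 9.42 and 8.24 without overlap, at an adjusted p of 0.0766. NORAD rose to 132% of nc in HCC827 (62.4, 61.2 and 59.7 FPKM, adjusted p = 0.00200) and to 117% in EBC-1 (adjusted p = 0.0423), where the call was lost under 9 of 15 alternatives. CASC9, LINC00857, LINC00941 and LINC01503 passed in no line.

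Of the nuclear body RNAs, NEAT1 was not called in any line, with adjusted p from 0.0792 to 0.863, and MALAT1 was called in EBC-1 as given above. TP53TG1, the single member on a short list of stress and p53 linked lincRNAs, fell in EBC-1 from 8.15, 6.73 and 7.21 FPKM to 5.03, 5.52 and 4.67 (68.9% of nc, adjusted p = 0.00575). AC004816.1 rose in HCC827 to 130% (adjusted p = 0.0252), a call lost without any 1 of the shSYK libraries. AL391121.1 passed in no line.

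The nearest coding gene within 100000 bases that was tested in the line was read in the same fit. For some members a coding gene that was not tested lies nearer. In EBC-1 it had changed for 27 of 57 members that changed (47.4%), 19 of these 27 in the member's direction. For members that did not change the count was 58 of 119 (48.7%), with 32 of the 58 sharing the sign of the member's log2 change. HCC827 gave 22 of 45 (48.9%), 17 in the same direction, and 51 of 116 (44%), 22 with the same sign. PC-9 gave 0 of 5, and 4 of 183, 3 with the same sign. Among all protein-coding genes tested, the share that passed was 48.4% for EBC-1, 2.11% for PC-9 and 40.4% for HCC827. Joint movement of members and neighbours was not tested. Members with a divergent coding partner changed in 37.9% of 66 cases in EBC-1 and in 25.4% of 59 in HCC827, while the other members gave 31.8% and 34.9%.

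AP-1 letters were found in the promoters of 11 of 72 members that changed in EBC-1 (15.3%) and in 7.75% of the 142 that did not, while HCC827 gave 13 of 67 (19.4%) and 4.96% of 141. Among the protein-coding and lincRNA genes tested, whose promoters alone were read, the shares were 5.37% of 5136 changed and 5.07% of 5625 other genes in EBC-1, with 6.22% of 4291 and 4.89% of 6406 for HCC827. In HCC827 both directions held them, 8 of 48 members that rose and 5 of 19 that fell. GC boxes were in 54.2% of the members that changed in EBC-1 and 52.1% of the others, and in 52.2% and 53.9% in HCC827. These counts were made after earlier results were known and carry no test.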

How the data were processed

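RNA of 18 libraries (3 cell lines, nc and shSYK, 3 libraries per group) had been sequenced. The authors deposited 1 table per cell line of FPKM values, with gene lengths and biotypes. The submitters' processing notes name HISAT2 and CASAVA and list both hg19 and hg38 as builds. The study's methods give hg38, which the positions of 296 of 297 matched members in GENCODE v44 met by overlap. The counter, the annotation release and strand are not given in the sources used here. No column of the authors' own comparisons was present, and 0 per-sample columns were unused.

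FPKM times gene length stepped by a constant in each library, and dividing by that step gave reads, with 100% of values within 0.1 of a whole number. Per gene and cell line, log2(FPKM + 1) was compared by limma 3.58.1 (R 4.3.3) with empirical Bayes moderation and a variance trend, 2-sided, for genes with a mean of at least 1 FPKM, and p-values were adjusted by Benjamini-Hochberg over all genes tested. Fold changes on this scale understate those of low genes. Differences between lines were tested in 1 fit of all 18 libraries. The tables were made separately, so levels across lines were not tested. An exact permutation test of 3 against 3 libraries cannot go below p = 0.1, and none is given. Read counts below a mean of 3 per library were treated as a floor for folds between lines, and precision here covers counting error only.

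The members and gene lists were chosen with earlier results of these data known. The genes named were the 10 highest members (1 of them is not reported here), the 8 highest line-specific members per line, the 6 largest rises and falls per line among changed members without overlap, members without overlap in the same direction in all lines, the members of the lists, and those nearest the threshold. Other genes named were chosen after their values were seen, such as the members that changed in both EBC-1 and HCC827. Alternatives were a pseudocount of 0.1, other filters, equal library sums, quantile normalization, limma-voom on recovered reads, no variance trend, a replicate block, a fit of all libraries, and leaving out each library. The limma fits were tested on simulated data. Promoters were read from hg38 and miRNAs from RefSeq (GRCh38.p14). Python 3.11.15, numpy 2.4.6, pandas 2.3.3, scipy 1.17.1 and matplotlib 3.10.9 were used.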

Additional observations from a re-analysis of the deposited data

Results flagged for a closer look

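For 18 named members the log2 change after SYK depletion was unequal in 2 lines by limma's test of the difference, adjusted over all genes, where both lines had been tested. Differences are log2 effects of the first line minus the second.

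Between EBC-1 and PC-9 the difference was -2.84 for AC254633.1 (adjusted p = 0.000115), -1.80 for AC009093.4 (0.000301), -1.56 for AP006621.2 (0.00278), -1.43 for APTR (0.000305), -1.36 for AC015712.1 (0.000292), -0.74 for LINC00511 (0.00231), 0.72 for LINP1 (0.00785) and 0.99 for SNHG25 (0.0135). The falls of the first 6 in EBC-1 were thus larger than their changes in PC-9, while AP006621.2 and SNHG25 rested on at most 19 reads a library.

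Between EBC-1 and HCC827 it was -2.16 for AC254633.1 (adjusted p = 0.000782), -1.47 for APTR (0.000163), -1.47 for MIR503HG (0.00117), -1.17 for AP006621.2 (0.0145), -1.07 for AL645608.9 (0.00882) and -1.05 for MIR200CHG (0.0175). Smaller differences were seen for AP002360.2 (-0.62, adjusted p = 0.0154), MIR4435-2HG (-0.59, 0.00138) and CYTOR (-0.46, 0.0125). Those in the other direction were LINC00342 (0.87, adjusted p = 0.0276), AC002384.1 (0.83, 0.000230) and LINP1 (0.62, 0.0167).

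Between PC-9 and HCC827 it was -1.20 for AC245041.2 (adjusted p = 0.000977), -1.10 for MIR503HG (0.0194), -0.67 for AP002360.2 (0.0215), 0.77 for LINC00511 (0.00332) and 1.18 for LUCAT1 (0.0252). LUCAT1 ranged from 3.00 to 8.29 FPKM within nc PC-9 cells, with nc replicate 1 the lowest.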

How the results depend on the processing

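No result turned its direction. Counts of changed members moved by over 1.5 times as follows: a filter at 5 FPKM, which tests fewer genes, gave 25 in EBC-1 and 32 in HCC827. In PC-9 no filter gave 0 (59 with an unadjusted p under 0.05, and 6 by voom under the usual filter), and the fit of all 18 libraries gave 31. Members without overlap at 5 FPKM or more were 28, 29 and 33 in the lines in the order EBC-1, PC-9, HCC827. Except where a share over all genes is given, the counts in this section show dependence on the processing only. They are no result about the members. At 5 times and 20 times both other lines, the line-specific counts were 24 and 3 for EBC-1 and 34 and 11 for PC-9. Effects that differed between EBC-1 and HCC827 numbered 43 with a pseudocount of 0.1, and those between PC-9 and HCC827 13 with it and 7 with voom. The cause of these moves was otherwise not tested. Leaving out 1 library gave 53 to 85 changed members in EBC-1, 0 to 14 in PC-9 (14 without nc replicate 1, 0 without nc replicate 3 or any shSYK library) and 55 to 68 in HCC827. The line-specific counts then were 7 in EBC-1, 17 to 18 in PC-9 and 15 to 16 in HCC827. Without PC-9 nc replicate 1, an alternative chosen after seeing the data, 79 members (44.1%) and 42.9% of all genes did not overlap in PC-9, where leaving out a library can only raise or keep a count.

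Of 59 calls of named members, 42 held under every alternative run: 17 of 24 in EBC-1, 0 of 6 in PC-9 and 25 of 29 in HCC827. Correlations of deviations ran from -0.22 to 0.33 between nc and shSYK libraries with the same number, and from -0.36 to 0.38 between those with different numbers. With 3 libraries per group, these values cannot decide whether the numbers mark pairs. The replicate block gave 68, 8 and 67 changed members in EBC-1, PC-9 and HCC827, and 46, 59 and 17 effects that differed between EBC-1 and PC-9, EBC-1 and HCC827, and PC-9 and HCC827.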
